A study of Mus musculus with 40 samples.

Results

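The LIM homeobox genes are read here as 10 genes of the mouse, *Lhx1*, *Lhx2*, *Lhx3*, *Lhx4*, *Lhx5*, *Lhx6*, *Lhx8*, *Lhx9*, *Lmx1a* and *Lmx1b*, chosen by name from the 22028 protein-coding genes of the annotation. At each of them the peaks of H3K27me3, a histone mark of Polycomb-repressed chromatin, and of H3K4me3, a mark of active promoters, were taken at promoters and over the gene body. Promoters were windows around every annotated transcript start (mm10), reaching 2000 bp against and 1000 bp along the direction of transcription, and a locus is the promoters and the gene body of a gene together. Oligodendrocyte precursor cells (OPCs), the dividing cells that give rise to myelinating oligodendrocytes, were isolated with an antibody against PDGFRa from brains of mice at postnatal days 5 to 7 and grown in proliferation medium without differentiation. K27M cultures came from AMGFAP-Cre;K27M mice (the sample labels' name, where the study's methods write hGFAP-Cre), in which Cre under a GFAP promoter removes a stop cassette and the endogenous *H3-3a* gene then encodes histone H3.3 with lysine 27 replaced by methionine, and control cultures came from littermates. The mice were of FVB background, and the brains of a litter were pooled by region and genotype before culture, so a culture is a pool of animals. Brainstem cultures were numbered 59 and 61, and cultures of the dorsal telencephalon (called cortex in the sample labels) were numbered 59, 60 and 61. One library per mark, genotype and culture gave 20 libraries, in which each K27M culture had a matched control (5 pairs). A peak list records only signal past the caller's threshold, and in cultures of many cells fewer cells with a mark and less of it per cell cannot be told apart. Peak lists do not show the mutation itself, so the genotype could not be checked in them.

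LIM homeodomain proteins are transcription factors that pair a DNA-binding homeodomain with LIM domains, zinc-binding folds through which they bind Ldb cofactors and one another. In the embryonic nervous system their combinations mark neuron classes and territories, and most members come as paralog pairs. In cells of other lineages the genes are known as typical Polycomb targets, with long stretches of H3K27me3 around CpG-rich starts. A promoter that carries both marks is called bivalent.

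H3K27me3 lists of the controls held 12715 to 64808 peaks and those of K27M 4739 to 15753, while H3K4me3 lists held 22722 to 31200 and 20961 to 30826. Telencephalon 59 had the fewest H3K27me3 peaks of its genotype in both genotypes, and the H3K4me3 lists of telencephalon controls 60 and 61 reached fold enrichments of 157 and 104, against 23.4 to 64.7 in the other libraries. All 6 OPC markers (*Pdgfra*, *Cspg4*, *Olig1*, *Olig2*, *Sox10* and *Nkx2-2*) had an H3K4me3 promoter peak in every library. Of the markers of other cell types, 4 or 5 of 5 neuronal, 1 to 4 of 4 astrocytic, 0 or 1 of 4 microglial and 0 or 1 of 3 endothelial genes had one, and the part of such cells in the results was not tested. *Emx2* and *Emx1*, factors of the dorsal telencephalon, both had one in each telencephalon library. *Emx1* also had one in each brainstem library, and *Emx2* in both brainstem controls but in no brainstem K27M library. *Hoxa2*, *Hoxb2*, *Hoxa3* and *Hoxb3*, which pattern the hindbrain, had one at 4 of 4 genes in each brainstem library, at 0, 2 and 3 of 4 in telencephalon controls 59, 60 and 61 and at 0 of 4 in each telencephalon K27M library.

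The bases before 3 starts are shown because their state carries the results that follow: at *Lhx1* both marks lay on them in every library, at *Lhx2* H3K27me3 was present in some libraries and missing in others, also within a group, and at *Lmx1b* H3K4me3 was short or missing in K27M. Each run is 250 bases 5′ to 3′ on the gene's strand from RefSeq (GRCm38.p6), with CpG dinucleotides in capitals. The positions are chr11:84525535-84525784 on the minus strand for *Lhx1*, chr2:38339031-38339280 on the plus strand for *Lhx2* and chr2:33641099-33641348 on the minus strand for *Lmx1b*.
Lhx1: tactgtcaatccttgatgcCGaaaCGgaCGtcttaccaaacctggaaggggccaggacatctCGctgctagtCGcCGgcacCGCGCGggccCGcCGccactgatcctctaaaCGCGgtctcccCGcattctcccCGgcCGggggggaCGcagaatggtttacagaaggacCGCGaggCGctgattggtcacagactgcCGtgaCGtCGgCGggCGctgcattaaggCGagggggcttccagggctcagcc
Lhx2: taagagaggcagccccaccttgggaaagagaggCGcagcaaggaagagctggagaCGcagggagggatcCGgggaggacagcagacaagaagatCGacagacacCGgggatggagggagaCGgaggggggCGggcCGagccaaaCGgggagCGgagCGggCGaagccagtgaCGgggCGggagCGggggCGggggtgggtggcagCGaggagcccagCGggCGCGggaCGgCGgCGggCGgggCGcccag
Lmx1b: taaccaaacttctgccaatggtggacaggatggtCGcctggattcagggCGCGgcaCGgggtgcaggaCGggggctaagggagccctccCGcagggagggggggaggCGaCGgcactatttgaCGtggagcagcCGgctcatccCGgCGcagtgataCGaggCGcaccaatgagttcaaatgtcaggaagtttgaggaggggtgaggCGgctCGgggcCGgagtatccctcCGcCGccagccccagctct

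They hold 26, 25 and 19 CpG, against a median of 6 over 32841 RefSeq promoters cut to the same length. RefSeq entries matched 9 of the 10 members with 13 starts, and their CpG counts ran from 4 at *Lhx8* and *Lhx9* to 26 at *Lhx1*. The homeodomain core TAATTA, searched on both strands as it reads the same on each, was in 0 of the 13 windows and in 4.84% of all of them. H3K27me3 peaks covered all 250 bases of the *Lhx1* and *Lmx1b* windows in all 10 libraries. The *Lhx2* window was covered over 250 and 30 bases in the brainstem controls, over 0, 250 and 250 in the telencephalon controls, over 250 in both brainstem K27M libraries and over 0, 250 and 0 in the telencephalon K27M libraries. H3K4me3 covered 244 to 250 bases of the *Lhx2* window in all 10 libraries. At *Lmx1b* it covered 250, 115, 0, 250 and 250 bases in the controls (brainstem 59 and 61, then telencephalon 59, 60 and 61, an order kept for all lists of 5 values) and 0, 0, 0, 0 and 77 in K27M.

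Every member carried an H3K27me3 promoter peak in all 10 libraries, 10 of 10 genes against 5.77% of protein-coding genes. Both marks lay in 1 promoter window in all 10 cultures at *Lhx1*, *Lhx2*, *Lhx4* and *Lmx1a*, 4 of 10 members against 2.71% of protein-coding genes. With only peaks of a fold enrichment of at least 3, that count was 0. *Lhx6*, *Lhx8* and *Lhx9* had both marks in 7 cultures each, missing in telencephalon 59 of both genotypes and in brainstem 61 of K27M. *Lmx1b* had both in 5 cultures, 4 of them controls. *Lhx3* had both in 3 and *Lhx5* in 2, all of the telencephalon, so neither brainstem genotype had H3K4me3 at their promoters. By culture, both marks were found at 8, 8, 4, 10 and 10 members in the controls and at 7, 4, 4, 7 and 9 in K27M.

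The first question was whether the K27M cultures differed from the controls in H3K27me3 at these genes. The covered length of the locus had a median over the 10 members of -0.02 on the log2 scale (mean over pairs of log2 of K27M to control covered bases, 100 bp added to each), from -0.23 at *Lmx1a* to 0.15 at *Lhx2*. Over the 9686 protein-coding genes with a peak in any library the median was -1.48. A peak in any library was enough for that set, whereas each member had a promoter peak in all 10 libraries. A median over genes with a promoter peak in every library was not taken for this measure. The members' means hide pairs that went opposite ways. The log2 ratios of *Lhx2* were 0.97, 1.34, 1.23, -0.51 and -2.26 in brainstem 59 and 61 and telencephalon 59, 60 and 61. *Lmx1a* was at 0.64, -0.16, -0.26, -0.69 and -0.66 and *Lmx1b* at -0.05, 0.10, 0.14, -0.83 and -0.46. *Lhx8* alone was lower in all 5 pairs, 1 of 10 against 18.7% of genes, and no member was higher in all 5, against 0.124%. The exact sign-flip permutation test over 5 pairs cannot give a p under 0.0625, which is the value at *Lhx8*. The measure ends at the edges of the locus and was at or near its maximum at *Lhx1*, *Lhx5* and *Lhx9*, so it cannot show a change in the length of their domains. Counted to their own ends, the peaks at *Lhx5* were 41502, 25782, 20189, 26935 and 43307 bp long in the controls and 24331, 29307, 19754, 21768 and 22766 bp in K27M. Those at *Lhx8* summed to 27583, 27049, 18821, 25369 and 39205 bp and to 22937, 21957, 19428, 22421 and 20448 bp. Both genes were lower in 4 pairs, with *Lhx5* higher in brainstem 61 and *Lhx8* higher in telencephalon 59. The share of control-marked bases that K27M peaks also covered differed between pairs. In the brainstem 59 pair, K27M peaks lay over 85.9% to 100% of the bases marked in the control at each member, and in the brainstem 61 pair over 86.2% to 100%. The median over protein-coding genes with a control peak was 0% and 22.7% in those pairs. In the telencephalon 59 pair the share was 83.6% to 100% at each member, against a median over genes of 13.7%. In telencephalon 60 the share was lower at *Lmx1b* (55.5%), *Lmx1a* (61.7%) and *Lhx2* (70.0%) than at the other members, where it was 85.3% or more. The telencephalon 61 pair went lower still at *Lhx2* (20.3%), with *Lmx1a* at 63.1%, *Lmx1b* at 70.5%, *Lhx8* at 74.4%, *Lhx4* at 74.5%, *Lhx6* at 81.6% and the remaining 4 members at 97.6% or more, against a median over genes of 0% in both pairs.

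**Figure D1:**
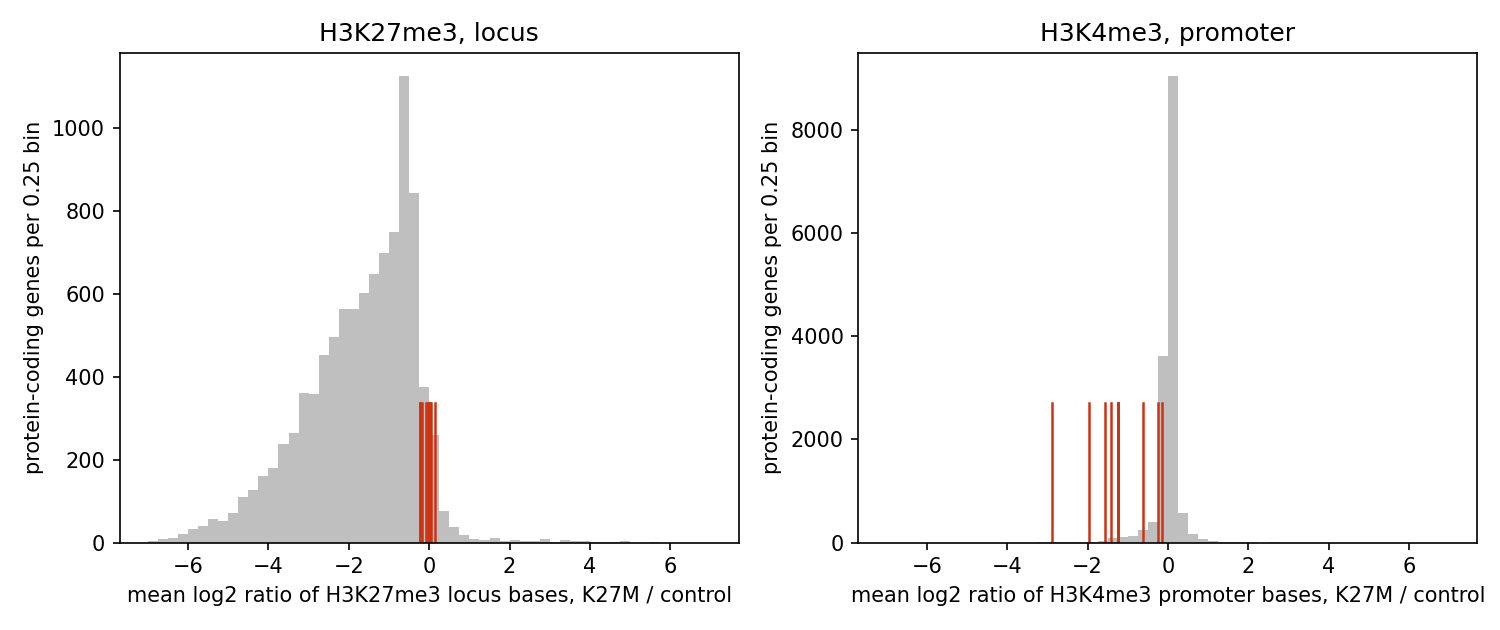
Histograms of the mean log2 ratio of covered bases, K27M to control, over protein-coding genes with a peak in any library (x axis, log2; y axis, genes per bin of 0.25), for H3K27me3 at the locus on the left and H3K4me3 at promoters on the right; red lines mark the 10 LIM homeobox genes. For H3K27me3 the members sit between -0.23 and 0.15, to the right of the median of all genes, and for H3K4me3 between -2.88 and -0.14, to its left.

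The highest fold enrichment of the H3K27me3 peaks at a promoter, a ratio over input within a library, was higher in K27M in all 5 pairs at 8 of 10 members, against 42.2% of the 1272 genes with such a peak in every library. The exceptions were *Lhx2* and *Lhx3*. The members' mean log2 ratio had a median of 1.29, against 0.33 over the 1272 genes. The ratio belongs to the whole peak that reaches a promoter, not to the promoter alone, and is not scaled by spike-in. The highest fold enrichment of the whole H3K27me3 list was also higher in K27M in each pair. It was 10.9, 11.7, 7.48, 21.2 and 11.9 in the controls and 31.3, 38.7, 11.7, 30.9 and 33.7 in K27M. The part of this difference in the members' ratios was not tested. Ranked within each library, the percentile of fold enrichment changed by a median of -1.53 points, against -10.1 over the 1272 genes. Ranks were taken among protein-coding genes with a promoter peak in that library, 2193 to 6600 in the controls and 1407 to 2689 in K27M. A percentile can thus fall when weaker genes leave the ranking, so it does not give the direction of a change in enrichment. The mean differences ran from 5.40 ± 4.96 at *Lhx3* to 17.3 ± 9.60 at *Lmx1b* (SD, n = 5 pairs), with exact sign-flip permutation p = 0.0625 at the 8 members, 0.125 at *Lhx3* and 0.5 at *Lhx2*. With libraries permuted within regions in place of pairs, 4 members had an unadjusted p under 0.05 and 0 passed after Benjamini-Hochberg adjustment over the 1272 genes (exact permutation test, lowest adjusted p among members 0.201).

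**Figure D2:**
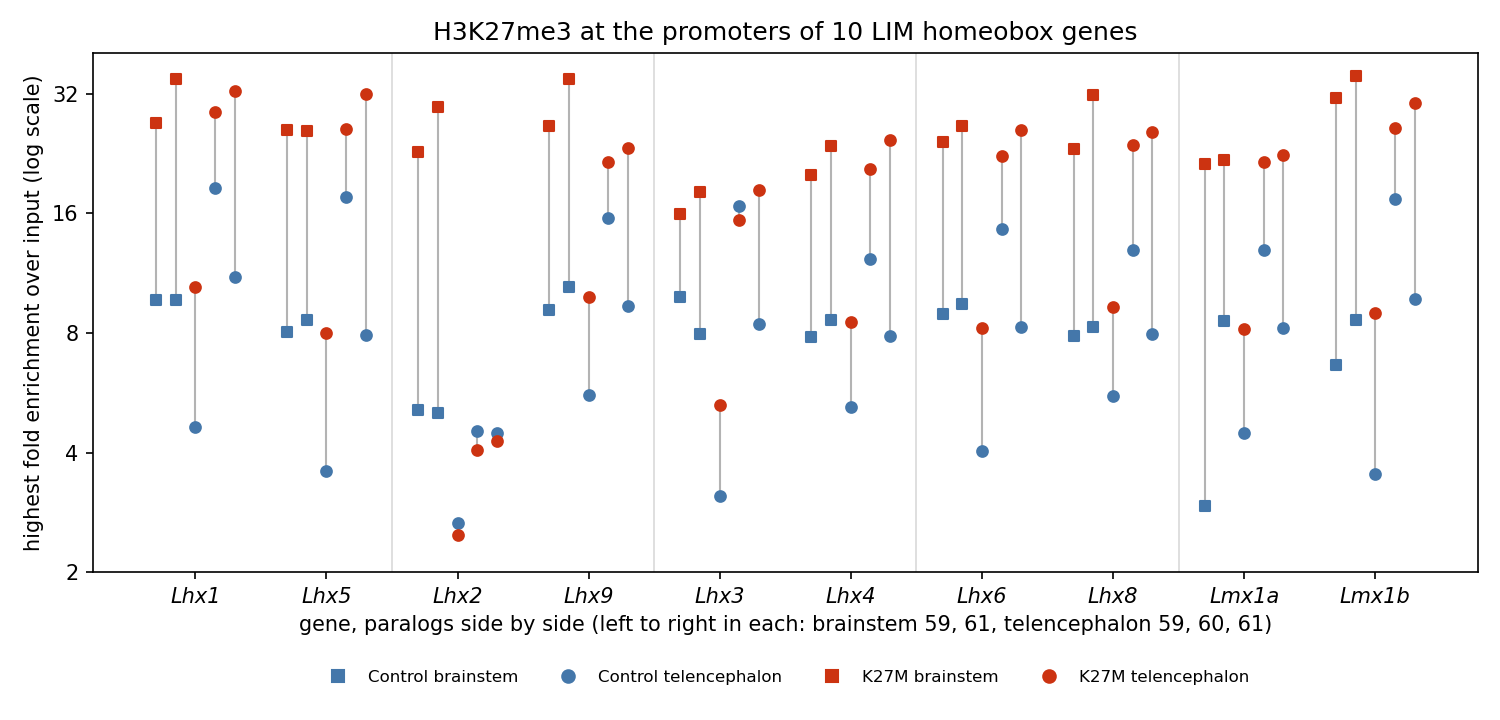
Highest fold enrichment over input of any H3K27me3 peak that reaches a promoter of the gene (y axis, log scale), in the 10 libraries. Each value belongs to a whole peak. Paralogs are side by side, blue is control, red K27M, squares brainstem, circles telencephalon, and grey lines join matched cultures. At *Lhx2* the brainstem pairs rise from 5.11 and 5.02 to 22.8 and 29.6 while the telencephalon circles stay between 2.49 and 4.54.

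*Lhx1* and *Lhx5*, expressed in early neurons such as Cajal-Retzius cells and in cerebellar Purkinje cell precursors, had their loci filled with H3K27me3. The *Lhx1* locus (chromosome 11, 84518284 to 84525535, minus strand, with the antisense gene *Lhx1os* at its start) was covered over all 9252 bp in each of the 10 libraries by a single peak of 19099 to 22641 bp. Its highest fold enrichment was 9.70, 9.69, 4.64, 18.6 and 11.1 in the controls and 26.96, 34.9, 10.5, 28.7 and 32.6 in K27M, a mean difference of 15.997 ± 7.99 (SD, n = 5 pairs, exact sign-flip permutation p = 0.0625). Controls and K27M overlapped through telencephalon 59. The *Lhx5* locus (chromosome 5, 120431699 to 120441223, plus strand, 11525 bp with its promoter) was covered over 94.4% to 100% by a single peak, whose length ran from 19754 to 43307 bp. Its fold enrichment was 8.03, 8.63, 3.59, 17.6 and 7.89 in the controls and 26.0, 25.8, 7.99, 26.1 and 32.03 in K27M.

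*Lhx2* and *Lhx9* have roles in the cortex, eye and diencephalon, and *Lhx2* is known as a selector of cortical identity. *Lhx9* (chromosome 1, 138825186 to 138848577, minus strand) was covered over 97.3% to 100% of its 25392 bp in each library. Its fold enrichment was 9.16, 10.4, 5.57, 15.6 and 9.38 in the controls and 26.5, 34.9, 9.84, 21.5 and 23.4 in K27M.

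*Lhx2* (chromosome 2, 38339281 to 38369733, plus strand, overlapping *Gm27197* and *Gm13584*) had a longer H3K27me3 domain in brainstem K27M than in any other group of libraries. Of its 32453 bp, 14284 and 11911 were covered in the brainstem controls and 28070 and 30218 in brainstem K27M. The telencephalon controls had 1406, 19457 and 14349 bp and telencephalon K27M 3421, 13618 and 2910 bp. Both brainstem K27M libraries lay above the other 8 libraries, while the telencephalon genotypes overlapped. The highest fold enrichment was 5.11, 5.02, 2.66, 4.54 and 4.48 in the controls and 22.8, 29.6, 2.49, 4.05 and 4.28 in K27M. It was thus higher in both brainstem pairs and lower in all 3 telencephalon pairs, a pattern held by 1 of 10 members and by 1.10% of the 1272 genes. The mean log2 ratios of the regions differed by 2.47, at an exact permutation p of 0.1 over the 10 splits of the pairs, the smallest this design allows. The pattern itself separates the pairs of the regions, so this p adds nothing to it. Within each library the percentile of its fold enrichment went from 82.4 and 80.2 to 94.3 and 97.1 in the brainstem, and from 59.4, 66.4 and 76.2 to 29.1, 52.1 and 44.9 in the telencephalon. The ranked genes were those with a promoter peak in that library, fewer in K27M in each pair. In brainstem K27M a single peak ran from -6558 and -6338 bp to 23331 and 24497 bp relative to the first start, where the corresponding peaks of the controls ended at 10892 and 10403 bp. The 250 bases before a later RefSeq start of *Lhx2* (chromosome 2, 38351058 to 38351307) lay wholly under H3K27me3 in both brainstem K27M libraries and held none in the other 8. Beside this, H3K4me3 at the promoters of *Emx2* covered 1947 and 797 bp in the brainstem controls and 0 bp in both brainstem K27M libraries, against 4779 to 6699 bp in the telencephalon. At *Emx1* it covered 1130 and 1137 bp in the brainstem controls and 1139 and 477 bp in brainstem K27M, and the part of region-derived cells in the *Lhx2* result was not tested.

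**Figure D3:**
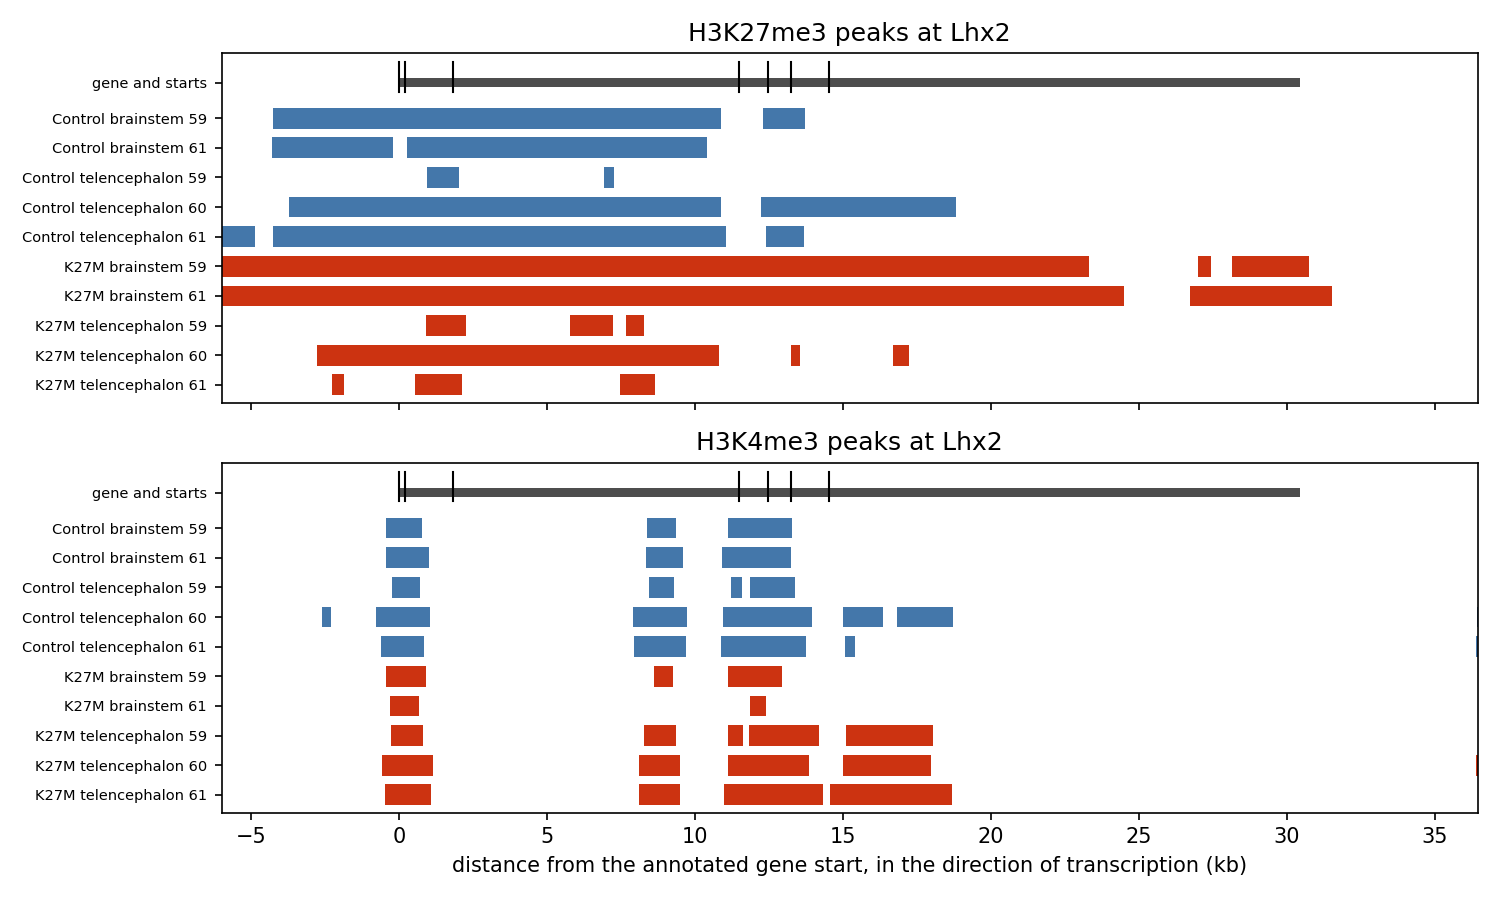
H3K27me3 (top) and H3K4me3 (bottom) peaks of the 20 libraries around *Lhx2* by distance from its first annotated start (x axis, kb), 1 row per library, blue control and red K27M, with the gene as a dark bar and its starts as ticks. The 2 brainstem K27M rows are filled to 23331 and 24497 bp past the start, whereas telencephalon K27M 59 and 61 hold only short H3K27me3 peaks.

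H3K4me3 at the *Lhx2* promoters covered 3418, 3875, 2835, 5621 and 4858 bp in the controls and 3166, 1510, 4346, 4985 and 5856 bp in K27M. It was lower in 3 pairs and higher in 2, with a mean log2 ratio of -0.14 ± 0.72 (SD, n = 5 pairs, exact sign-flip permutation p = 0.75). Over the whole locus in K27M, H3K27me3 lay over 100% of the H3K4me3 bases in both brainstem libraries and over 0.025%, 44.2% and 10.4% in the telencephalon. In the controls that share was 72.5%, 43.6%, 0%, 87.2% and 73.0%. Its percentile of H3K4me3 fold enrichment within the library was 66.6, 36.4, 25.8, 93.3 and 74.6 in the controls and 16.2, 11.9, 33.1, 67.4 and 77.0 in K27M, lower in 3 pairs and higher in telencephalon 59 and 61.

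*Lhx3* and *Lhx4*, which act in motor neurons and the pituitary, differed in H3K4me3. At *Lhx3* (chromosome 2, 26200212 to 26208289, minus strand, with *Gm27196* and *Qsox2* overlapping the locus) 71.4% to 85.4% of 10078 bp lay under 1 H3K27me3 peak in each library. Its fold enrichment was 9.84, 7.96, 3.12, 16.7 and 8.45 in the controls and 15.9, 18.1, 5.27, 15.4 and 18.4 in K27M, lower in the telencephalon 60 pair and higher in 4. *Lhx4* (chromosome 1, 155698031 to 155751684, minus strand) had 27.8% to 53.3% of 55654 bp covered in the controls and 34.1% to 56.7% in K27M, with fold enrichments of 7.83, 8.65, 5.22, 12.3 and 7.87 against 20.0, 23.6, 8.53, 20.7 and 24.5.

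*Lhx6* and *Lhx8* specify interneurons and cholinergic neurons of the ventral forebrain. *Lhx6* (chromosome 2, 36081953 to 36105408, minus strand, overlapping *Gm27953*) was covered over 73.6% to 100% of 25456 bp. Its fold enrichment was 8.94, 9.44, 4.03, 14.6 and 8.30 in the controls and 24.2, 26.5, 8.23, 22.4 and 25.9 in K27M. *Lhx8* (chromosome 3, 154306294 to 154330659, minus strand, overlapping *AI606473*) went from 20240, 17570, 14462, 18573 and 20310 bp in the controls to 17385, 16471, 14414, 16202 and 15102 bp in K27M. The ranges of the genotypes overlapped, and the mean log2 ratio was -0.19 ± 0.16 (SD, n = 5 pairs, exact sign-flip permutation p = 0.0625). The promoters of *Lhx8* stayed covered over all 8493 bp in each library, so the bases that differed lay outside the promoter windows.

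*Lmx1a* and *Lmx1b* act in the roof plate and in midbrain dopaminergic neurons, and *Lmx1b* also in serotonergic neurons. *Lmx1a* (chromosome 1, 167689237 to 167848741, plus strand) was marked near its start, with 7160, 11757, 12340, 16442 and 17590 of 161505 bp covered in the controls and 11202, 10494, 10314, 10139 and 11102 in K27M. *Lmx1b* (chromosome 2, 33560965 to 33640511, minus strand, overlapping *C130021I20Rik* and *Gm38011*) had 26471, 21968, 17236, 42991 and 34015 of 81547 bp covered in the controls and 25642, 23543, 19002, 24061 and 24720 in K27M. Its fold enrichment of 6.62, 8.60, 3.53, 17.4 and 9.73 in the controls stood against 31.3, 35.5, 8.97, 26.2 and 30.4 in K27M.

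H3K4me3 at the promoters was lower in K27M at most members. Covered promoter bases were lower in K27M in all 5 pairs at *Lhx1*, *Lhx4* and *Lmx1a*, 3 of 10 members against 0.705% of the 14611 protein-coding genes with a peak in any library, and higher in all 5 at none, against 5.50%. Telencephalon 59 had no promoter peak of either genotype at 6 members, which ties that pair. Without it 7 members were lower in each pair, a count with no share of all genes beside it. With only peaks of a fold enrichment of at least 3, 0 members were lower in all 5, and the mean log2 ratios turned to 0.18 at *Lhx4* and 0.38 at *Lmx1a*. In telencephalon 59 the control promoter peaks of these genes, at 2.65 and 2.03, fell below that limit, while those of K27M, at 3.17 and 3.28, stayed. By a count chosen after the data were seen, 9 of 10 members, all but *Lhx2*, were lower in at least 2 pairs and higher in none, against 3.67% of genes. At *Lhx3* and *Lhx5* the lower pairs were telencephalon 60 and 61 alone. The highest fold enrichment of the whole H3K4me3 list was 37.4, 23.4, 25.8, 157 and 104 in the controls. In K27M it was 39.1, 28.3, 30.3, 62.7 and 64.7, lower only in telencephalon 60 and 61. The part of this difference in the counts was not tested. The members' mean log2 ratio had a median of -1.25, against 0.04 over all genes, and 1 member (*Lhx1*) had an unadjusted p under 0.05 and none an adjusted p under 1 with libraries permuted within regions (exact permutation test with Benjamini-Hochberg adjustment over 14611 genes). Where both libraries of at least 2 pairs had a peak, the percentile of its fold enrichment within the library was lower in K27M in each such pair at 5 of 7 members, against 6.22% of genes.

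**Figure D4:**
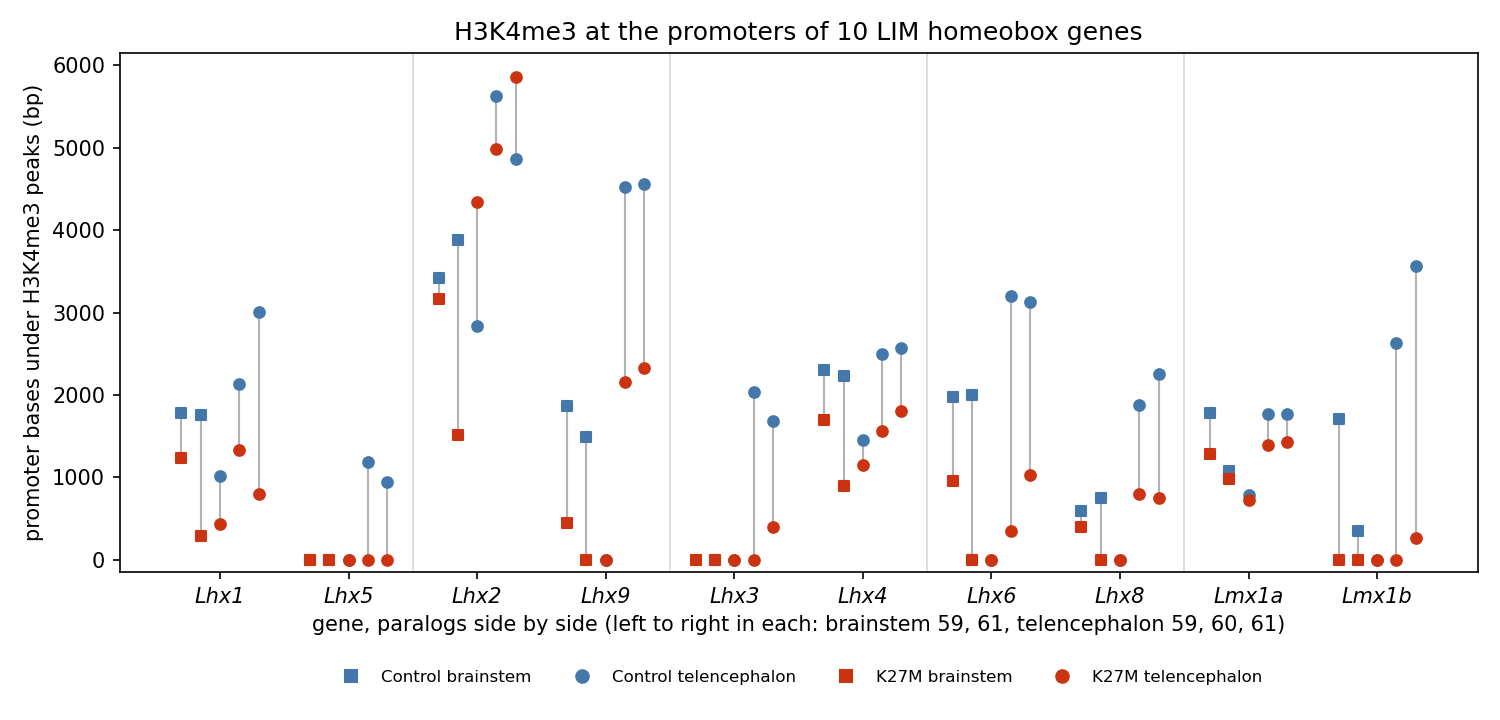
Promoter bases under H3K4me3 peaks (y axis, bp) at each gene, with blue control, red K27M, squares brainstem, circles telencephalon and grey lines between matched cultures; where both genotypes are at 0 the red symbol hides the blue. At *Lhx1*, *Lhx4* and *Lmx1a* each red symbol lies below its blue partner, and at *Lhx2* 3 fall and 2 rise.

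At *Lhx1* the H3K4me3 bases were 1783, 1756, 1017, 2130 and 3002 in the controls and 1236, 287, 431, 1334 and 797 in K27M, with a mean log2 ratio of -1.25 ± 0.76 (SD, n = 5 pairs, exact sign-flip permutation p = 0.0625). At *Lhx4* they were 2303, 2228, 1449, 2498 and 2574 against 1696, 899, 1154, 1564 and 1810. The *Lmx1a* values lay closest together, at 1776, 1071, 788, 1770 and 1765 against 1283, 983, 729, 1387 and 1429. At *Lhx6* the controls had 1980, 1995, 0, 3204 and 3131 bp and K27M 953, 0, 0, 347 and 1030. *Lhx9* went from 1863, 1494, 0, 4523 and 4564 to 445, 0, 0, 2159 and 2324 bp, and *Lhx8* from 586, 747, 0, 1880 and 2256 to 396, 0, 0, 795 and 749 bp. *Lhx3* and *Lhx5* had no promoter peak in the brainstem, although 3 of the 4 brainstem libraries had H3K4me3 in the gene body of *Lhx5*. In telencephalon 60 and 61 they fell from 2037 and 1678 to 0 and 400 bp and from 1183 and 941 to 0 and 0 bp. Ranked within the library, the H3K4me3 peak of *Lhx1* stood at percentiles of 23.6, 20.5, 14.9, 22.2 and 23.0 in the controls and 3.03, 0.94, 0.264, 3.97 and 3.91 in K27M, without overlap. For *Lhx4* the percentiles were 57.9, 66.9, 10.3, 82.0 and 62.3 against 10.4, 9.43, 5.74, 10.9 and 17.5, where control telencephalon 59 lay among the K27M values. *Lmx1a* went from 60.4, 14.4, 2.73, 77.8 and 42.7 to 11.9, 11.8, 6.47, 12.03 and 8.11, lower in 4 pairs and higher in telencephalon 59.

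*Lmx1b* had the lowest mean log2 ratio of the members, -2.88 ± 1.89 (SD, n = 5 pairs, exact sign-flip permutation p = 0.125), from 1704, 345, 0, 2627 and 3565 bp to 0, 0, 0, 0 and 267 bp. Its H3K27me3 promoter coverage was 6031 bp in all 10 libraries. H3K4me3 peaks inside the gene body, farther from the starts, were present in each library, and the locus as a whole kept 1372 to 2537 bp in K27M against 976 to 8745 in the controls.

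**Figure D5:**
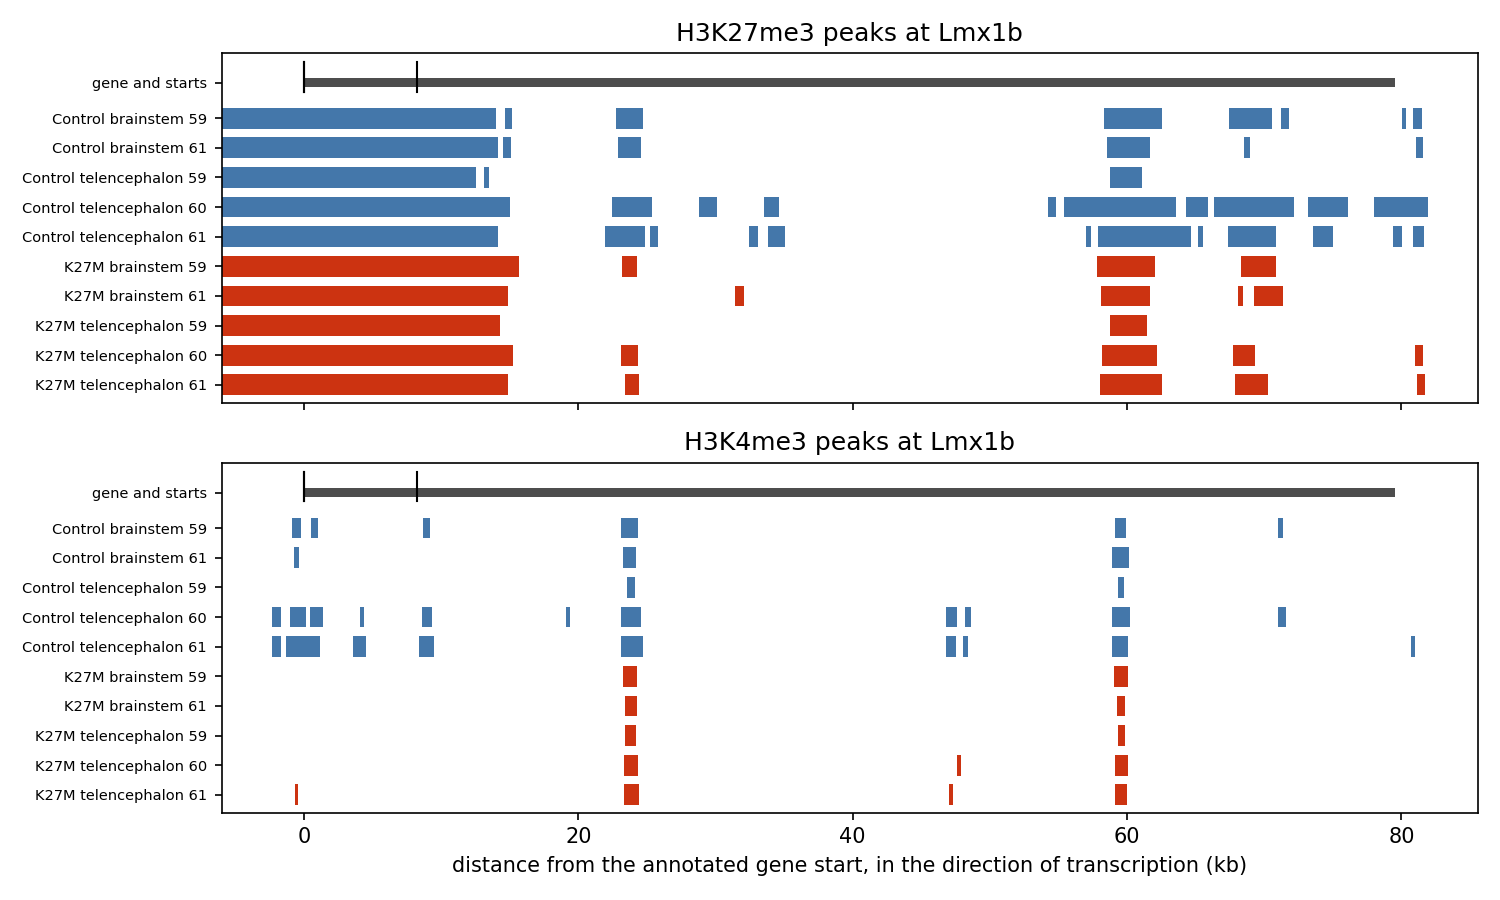
H3K27me3 (top) and H3K4me3 (bottom) peaks of the 20 libraries around *Lmx1b* by distance from its annotated start (x axis, kb), 1 row per library, blue control and red K27M, with the gene as a dark bar and its starts as ticks. H3K27me3 fills the start in all 10 rows, while H3K4me3 near the start is seen in 4 control rows and 1 K27M row.

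The second question was how the regions differed. In the controls, H3K27me3 covered more of the locus in each telencephalon than in each brainstem library at *Lmx1a* alone, 1 of 10 members against 1.18% of genes (exact permutation p = 0.2 over 10 splits), and less at none, against 3.19%. In K27M it covered less in each telencephalon library at *Lhx2*, *Lhx4*, *Lhx6*, *Lhx8* and *Lhx9*, 5 of 10 against 15.8%, and more at none, against 2.36%. At *Lhx9* that difference was -0.02 on the log2 scale and at *Lhx2* -2.47. H3K4me3 at promoters separated the control regions at no member, against 0.798% of genes with each telencephalon library above and 16.5% with each below, in a test that cannot give an exact permutation p under 0.1. Without telencephalon 59, however, the control regions were separated at 9 members, each higher in telencephalon 60 and 61. Those are the libraries with the highest H3K4me3 fold enrichments, and no share of all genes is given for this smaller set. In K27M *Lhx2* had more in each telencephalon library, 1 of the 9 members with a peak against 1.81%, and none had less, against 2.66%.

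The partner genes fell into several states. *Isl1* and *Isl2*, LIM homeodomain genes outside the Lhx and Lmx groups, had an H3K27me3 promoter peak in all 10 libraries with a higher fold enrichment in K27M in all 5 pairs, as at 8 members, and *Isl1* went from 9.98, 11.1, 5.99, 16.9 and 11.6 in fold enrichment to 26.8, 33.0, 11.5, 25.9 and 29.3. At *Isl1* the H3K4me3 promoter bases were 1126, 597, 287, 1495 and 1517 in the controls and 607, 425, 0, 824 and 1056 in K27M. At *Isl2* they were 2059, 1016, 596, 2890 and 2919 against 683, 459, 647, 2292 and 1523, higher in telencephalon 59 and lower in the other pairs. Of the LIM-only genes, whose proteins have LIM domains without a homeodomain, *Lmo1*, *Lmo3* and *Lmo4* had no H3K27me3 promoter peak in any library and *Lmo2* had one in 9 of 10. Of the cofactor genes, *Ldb1*, *Ssbp2*, *Ssbp3* and *Ssbp4* had none in any library, whereas *Ldb2* had one in 5 of 5 controls and 1 of 5 K27M libraries and *Rlim*, which encodes a ubiquitin ligase of LIM cofactors, in 2 of 5 controls and 2 of 5 K27M libraries. Outside the family, the protein-coding genes whose H3K27me3 covered lengths lay closest to the members' median over the 10 libraries were *Tal1*, *Gata6*, *Grb10*, *Igf2* and *Gm49394*, at distances of 0.66 to 0.71 on the log2 scale.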

How the data were processed

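ChIP-seq peak lists of H3K27me3 and H3K4me3 from 20 libraries were used, while signal of the 20 inputs was not analysed here. Reads had been mapped to mm10 by the authors (BWA 0.7.17-r1188), and MACS2 2.2.7.1 had been run on single libraries with the matching input, in broad mode for H3K27me3. For every peak the deposited columns give a ratio (fold enrichment above input) together with p and q, both as −log10. Spike-in reads do not enter these values, and read depth is not in the lists, so signal below the caller's threshold is not measured. No 2 lists of a mark shared over 0.00710% of their intervals.

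Promoters and genes came from GENCODE M21 (GRCm38, the assembly of mm10, 55536 genes). Covered bases, the highest fold enrichment and within-library percentiles were obtained with numpy 2.4.6 and scipy 1.17.1 under Python 3.11.15, and the functions were tested on simulated data. Log2 ratios used covered bases plus 100 bp. K27M and control were compared within matched cultures, which the study's methods describe as matched, by two-sided exact sign-flip permutation over 32 arrangements. Deviations of H3K4me3 promoter bases from the group means correlated between genotypes of a culture with r = 0.69, 0.37 and 0.48 in telencephalon 59, 60 and 61 and 0.08 in the brainstem, across genes, which are not replicates. The same for H3K27me3 was 0.29, 0.27 and -0.12, and 0.02. Regions were compared over the 10 splits of 2 against 3 libraries. All 10 members are named, with a fixed list of LIM partner genes, the marker lists and the 5 genes closest in H3K27me3 covered length. Members and lists were chosen with earlier results of these data known. Some marker results are not reported here.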

Additional observations from a re-analysis of the deposited data

Results flagged for a closer look

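*Lhx2* was flagged because the sign of the K27M to control ratio differed between the regions. The log2 ratio of its highest H3K27me3 promoter fold enrichment was 2.16 and 2.56 in the brainstem pairs. In the 3 telencephalon pairs it was -0.10, -0.17 and -0.06, below 0 but close to it. The regional means differed by 2.47. The exact permutation p over the 10 splits was 0.1, the smallest possible. The rule that flagged the gene already requires the pairs of the regions not to overlap, so this p adds no support. Leaving out each culture in turn gave differences of 2.27 to 2.67, from the same pairs.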

How the results depend on the processing

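Of the recomputed values for the main comparisons, 119 stayed close to the reported one (counts within 1.5 times) and 16 moved. Joining peaks within 3000 bp left 0 members lower in H3K27me3 locus length in all 5 pairs, in place of 1, and the telencephalon pairs alone gave 4. With peaks of a fold enrichment of at least 3, 0 members were lower in H3K4me3 promoter length in all 5 pairs, in place of 3, 0 had both marks in every culture, in place of 4, and the mean log2 ratios of *Lhx4* and *Lmx1a* changed sign to 0.18 and 0.38. At both genes that limit removed the control promoter peaks of telencephalon 59 and kept those of its K27M partner. The brainstem pairs alone gave 8 members lower in H3K4me3. These subsets of pairs were chosen after seeing the data. Shares of all genes are not given for them or for the sets with a culture left out. With fewer pairs or libraries, such counts are reached more easily. Without the replicate block, labels permuted within regions gave an unadjusted exact p under 0.05 at 0 members for H3K27me3 length, 4 for its fold enrichment and 1 for H3K4me3 length. With a replicate block between regions (cultures 59 and 61), 1 member differed in H3K27me3 and 0 in H3K4me3. K27M libraries alone gave 5 and 1 members with separated regions. Leaving out each culture in turn gave 1 to 2 members lower in H3K27me3 length, 3 to 7 lower in H3K4me3 length (7 without telencephalon 59), 1 to 3 with separated control regions in H3K27me3 (3 without telencephalon 59) and 0 to 9 in H3K4me3 (9 without telencephalon 59, 1 without brainstem 61). The cause was not tested. With all annotated genes as background, 3.28% had an H3K27me3 promoter peak in every library. Peak lists limit all of this to signal past the caller's threshold. The regional difference of *Lhx2* has no value with peaks of a fold enrichment of at least 3, since not every library keeps a promoter peak there.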
